A study of Drosophila melanogaster with 6 samples.

Results

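Cyclin G peaks were scored on 175 protein-coding genes of Drosophila melanogaster, out of 13986 in the annotation. They lie wholly inside regions of 4 chromosome arms that were taken, by position alone, as pericentromeric heterochromatin. On the dm6 assembly these regions were taken as arm 2L from position 22000000 to its end, 3L from 22900000 to its end, 3R up to 4200000 and X from 21300000 to its end. The X region held 90 of the genes, 3L held 37, 2L held 35 and 3R held 13. Genes whose symbols begin with RpL, RpS, eIF or ND- were set aside (7 genes in these regions), as were 3 genes that cross a border, and 10700 protein-coding genes elsewhere on the same arms, chosen by the same symbol rule, served for comparison.

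The samples were chromatin immunoprecipitations (ChIP) from wing imaginal discs, the larval precursors of the wing, dissected from female larvae of the third instar raised at 25 °C. Discs heterozygous for UAS-Myc-CycGΔP and, on another chromosome, for the ubiquitous daughterless driver da-Gal4 expressed Cyclin G with a Myc tag. The protein lacked its PEST domain, a stretch linked to protein turnover. From these discs 2 ChIP libraries with an input for each were made. A mock ChIP with its input came from da-Gal4/+ discs, which lack the tagged protein; its libraries were prepared from 5 ng of DNA against 38 ng and read at 50 bp against 75 bp, and they were not used here. The data therefore describe an overexpressed, tagged and truncated protein. They come as 1 list of 3363 peaks found in both ChIP replicates, with no height, score or per-replicate value, so no spread between replicates can be given, and the intervals below cover counting error only.

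Pericentromeric heterochromatin is the compact, repeat-rich chromatin that flanks the centromeres. Its histones carry methylated lysine 9 of histone H3, which is bound by heterochromatin protein 1, and euchromatic genes moved next to it are often silenced. A set of essential genes nevertheless resides in it and is transcribed there, and some of them, light being the textbook case, work poorly when moved away from it. Many of these genes have very long introns filled with remnants of transposable elements. Cyclin G is a cyclin that binds chromatin and interacts with Polycomb and trithorax regulators.

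A peak was counted as start-covering when at least 1 base at an annotated transcript start of the gene lay inside it. The first set of sequences shows such starts. They are read 5′ to 3′ on the strand of the gene, from 100 bases before to 50 bases after the start. Capitals mark the start base and every match to 4 short words, searched on both strands: TATCGATA (the DNA replication-related element, DRE), GGTCACACT (the core of the promoter element Motif 1), CACGTG (the E-box of Myc) and TATCTTGAC, a word noticed by eye in these windows. The windows were chosen after their values were seen. They hold every covered start with TATCTTGAC (4) and with the Motif 1 core (2), so they are not a sample of the covered genes. CkIIalpha encodes the catalytic subunit of casein kinase 2 (chr3L:23099540-23099690, plus strand), vtd the cohesin subunit Rad21 (chr3L:27136425-27136575, plus strand), Tim23 a mitochondrial protein import channel (chr2L:23313528-23313678, minus strand), CG41128 an uncharacterized protein (chr3R:3750263-3750413, plus strand), Clamp a zinc finger protein that guides the dosage compensation complex to the X (chr2L:22169093-22169243, minus strand), Dbp80 a DEAD-box RNA helicase (chr3L:27279216-27279366, plus strand) and Septin1 a septin of the cytoskeleton (chrX:21358186-21358336, plus strand).
CkIIalpha: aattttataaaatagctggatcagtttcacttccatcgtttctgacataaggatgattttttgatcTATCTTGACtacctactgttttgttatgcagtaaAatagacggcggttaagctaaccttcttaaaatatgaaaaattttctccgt
vtd: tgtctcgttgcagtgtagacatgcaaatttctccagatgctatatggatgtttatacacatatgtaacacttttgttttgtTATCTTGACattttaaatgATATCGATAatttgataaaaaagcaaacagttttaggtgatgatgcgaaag
Tim23: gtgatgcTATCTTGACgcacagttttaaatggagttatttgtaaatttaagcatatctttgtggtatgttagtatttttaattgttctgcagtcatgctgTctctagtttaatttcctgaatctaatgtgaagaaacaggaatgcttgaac
CG41128: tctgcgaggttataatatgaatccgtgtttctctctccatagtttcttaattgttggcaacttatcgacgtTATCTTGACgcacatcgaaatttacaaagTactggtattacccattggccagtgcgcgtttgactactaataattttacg
Clamp: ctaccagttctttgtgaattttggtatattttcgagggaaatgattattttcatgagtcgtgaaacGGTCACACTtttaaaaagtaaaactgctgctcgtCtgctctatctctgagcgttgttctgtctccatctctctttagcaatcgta
Dbp80: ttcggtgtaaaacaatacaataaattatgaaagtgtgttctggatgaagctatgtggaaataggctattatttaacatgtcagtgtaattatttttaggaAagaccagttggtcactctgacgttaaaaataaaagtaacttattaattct
Septin1: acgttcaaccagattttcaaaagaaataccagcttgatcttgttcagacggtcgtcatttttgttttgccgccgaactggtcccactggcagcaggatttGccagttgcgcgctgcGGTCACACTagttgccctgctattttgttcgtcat

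The second set shows, in the same format, starts that no peak covered. They belong to lt, which encodes a Vps41-like protein of vesicle trafficking (chr2L:22924695-22924845, plus strand), to cta, a G protein alpha subunit of gastrulation (chr2L:22981716-22981866, plus strand), to Set1, a histone H3 lysine 4 methyltransferase (chr3L:25107494-25107644, plus strand), and to su(f), a factor of mRNA 3′ end processing (chrX:23096671-23096821, plus strand). The su(f) window held a DRE and the Set1 window an E-box.
lt: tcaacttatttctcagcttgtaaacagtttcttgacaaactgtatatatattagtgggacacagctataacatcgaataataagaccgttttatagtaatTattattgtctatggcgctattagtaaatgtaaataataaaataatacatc
cta: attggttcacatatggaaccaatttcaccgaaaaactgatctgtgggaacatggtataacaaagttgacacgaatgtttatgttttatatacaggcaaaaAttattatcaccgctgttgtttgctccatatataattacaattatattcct
Set1: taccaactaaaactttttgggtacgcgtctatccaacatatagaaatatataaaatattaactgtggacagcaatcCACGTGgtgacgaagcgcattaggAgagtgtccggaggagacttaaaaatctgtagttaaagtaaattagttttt
su(f): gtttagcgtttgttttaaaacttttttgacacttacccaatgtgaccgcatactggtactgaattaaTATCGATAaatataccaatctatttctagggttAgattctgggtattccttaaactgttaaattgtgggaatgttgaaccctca

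The third set shows repeated starts. In the X region, 21 near-identical genes of unknown function (CG40813, CG46504 to CG46522 and CG41562) stand in tandem between positions 22143058 and 22252414, and all 21 had a DRE within 100 bases of the start. The windows of CG46511 (chrX:22182393-22182543), whose start was covered, and of CG46505 (chrX:22152742-22152892), which had no peak, are the same base for base, whereas that of CG46508 (chrX:22167555-22167705), also covered, differs upstream. All 3 lie on the plus strand.
CG46511: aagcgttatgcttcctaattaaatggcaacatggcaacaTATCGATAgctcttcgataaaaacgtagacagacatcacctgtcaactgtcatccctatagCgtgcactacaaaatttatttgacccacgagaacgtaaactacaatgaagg
CG46505: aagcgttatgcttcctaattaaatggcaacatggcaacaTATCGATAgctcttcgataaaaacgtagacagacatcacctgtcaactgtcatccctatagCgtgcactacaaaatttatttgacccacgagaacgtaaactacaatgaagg
CG46508: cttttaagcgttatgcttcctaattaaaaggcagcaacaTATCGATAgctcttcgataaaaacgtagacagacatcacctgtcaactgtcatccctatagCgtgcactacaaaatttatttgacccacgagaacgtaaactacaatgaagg

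Pericentromeric genes carried a peak more often than genes elsewhere, and most of those that did carried it at their start. Of the 175 genes, 44 overlapped a peak (25.1%, 95% Wilson interval 19.3 to 32.1), against 750 of 10700 elsewhere (7.01%); over both sets together the share was 7.30%. A transcript start was covered in 35 genes (20%, 14.7 to 26.5), against 551 elsewhere (5.15%) and 5.39% of both sets together. The difference was 14.9 percentage points (95% Newcombe interval 9.58 to 21.4). Peaks lay in introns only in 8 genes (4.57%, 2.33 to 8.76), against 135 elsewhere (1.26%) and 1.31% of both sets together. The last gene with a peak, CG46512, had it neither at a start nor in an intron, and 131 genes had no peak.

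The share of genes with a covered start was higher on the autosomal arms than on X. It was 35.1% on 3L (13 of 37 genes), 23.1% on 3R (3 of 13) and 20% on 2L (7 of 35), against 3.04%, 4.13% and 6.99% of genes elsewhere on the same arms. The 95% interval of each of these differences lay above 0. On X, 12 of 90 genes had a covered start (13.3%), but 10 of these were among the 21 tandem copies. Without the copies, 2 of 69 X genes remained (2.90%, 0.799 to 9.97), Septin1 and Usp2. On the autosomal arms 23 of 85 genes had a covered start (27.1%, 18.8 to 37.3). Elsewhere it was 3.51% of 8510 genes when the histone genes, another repeated family, were left out. The autosomal share exceeded that of X without the copies by 24.2 points (13.3 to 34.7). In sequence these X genes were near X genes elsewhere. Their medians were 11.6% repeat-masked and 42.8% GC within 100 bp of the start, against 9.91% and 42.8%. The pericentromeric genes of 2L, 3L and 3R had medians of 15.6%, 27.8% and 31.1% masked and 34.3%, 32.3% and 34.3% GC. Whether the X genes lie in heterochromatin in wing discs was not tested.

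**Figure D1:**
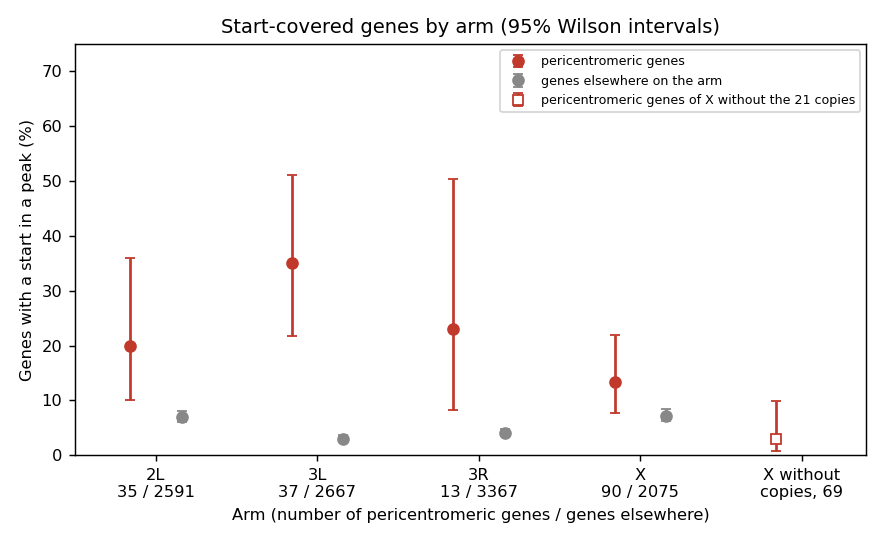
Percentage of genes with a transcript start inside a peak on each arm, for pericentromeric genes (red) and genes elsewhere on the arm (grey); bars are 95% Wilson intervals and the numbers under each arm are the genes in each set. The red points of 2L, 3L and 3R stand at 20%, 35.1% and 23.1%, all above the grey points, and the open square shows that X falls to 2.90% without the 21 copies.

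Repetition around the start bears on whether a peak can be called there. Each gene was therefore classed by its 5′-most start. That start was called once-occurring where at least 90% of the 75 bp words within 150 bp of it occur once in dm6. The word length matches the ChIP reads. The covered start of a gene can be another one, as in CkIIalpha and CG3651. Of the 141 pericentromeric genes classed as once-occurring, 24 had a covered start (17.0%, 11.7 to 24.1), against 443 of 10393 elsewhere (4.26%). Of the other genes, with a repeated 5′-most start, 11 of 34 had a covered start (32.4%) against 108 of 307 elsewhere (35.2%). The difference was -2.83 points (-17.1 to 14.7). Of these 11, 10 were tandem copies on X and the other was CG40439. Elsewhere, 102 histone genes, another repeated family, had a covered start, though how many of them had repeated starts was not counted. Copies of a family are not independent, and the interval takes no account of this. No conclusion on location was therefore drawn from the repeated starts. For genes with once-occurring starts on the autosomal arms the values were 22 of 78 (28.2%) against 3.56%. On X they were 2 of 63 (3.17%) against 7.21%, a difference of -4.04 points whose interval (-6.64 to 3.72) includes 0.

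The covered genes outside the tandem copies, 25 in all, had varied annotated roles. Several act at the chromosome or in transcription: vtd, Clamp, MED21 (a subunit of the Mediator complex) and Tif-IA (an initiation factor of RNA polymerase I). Spf45 encodes a splicing factor and Dbp80 an RNA helicase. Mitochondrial genes were Tim23 and Tim17b, both of the inner membrane import machinery, and UQCR-11, a subunit of respiratory complex III. Others concern membranes, adhesion and signalling, namely Vps11 (vesicle tethering), alpha-Cat (adherens junctions), Slmap, Alg-2 (a calcium-binding protein), Usp2 (a ubiquitin protease), Septin1 and CkIIalpha. The other covered genes were l(3)80Fg and l(3)80Fj, known from lethal mutations, and the uncharacterized CG3651, CG40439, CG33217, CG17698, CG40045, CG40228 and CG41128. No test of shared function was made. Had no symbol been set aside, 41 of 182 genes would have had a covered start. The 6 more are among the ribosomal, translation factor and respiratory complex I genes left out.

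At these 25 starts the peaks were narrow and sat just upstream. Their widths ran from 260 to 1071 bp with a median of 299 bp, and the peak centre lay upstream of the start in 24 of 25 genes, at a median of -66 bp (quartiles -91 and -41.5). At the 449 covered starts elsewhere outside the histone genes the median width was 304 bp and the median centre -75 bp, with 431 centres upstream. CkIIalpha had a peak of 283 bp centred at -42 bp, vtd one of 265 bp at -32 bp, Dbp80 one of 274 bp at -51.5 bp and Clamp one of 338 bp at -103.5 bp. Every word of the peak occurred once in the genome for 23 of the 25. The exceptions were CG40439 (24.3% of words) and CG17698 (29.4%), and the CG17698 peak was also the widest, at 1071 bp, and the farthest off, at -531 bp. The Slmap peak alone was centred downstream, at 28.5 bp. None of the 25 peaks covered the start of another gene, whereas 146 of the 449 covered genes elsewhere (32.5%) shared their peak with the start of a neighbour.

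**Figure D2:**
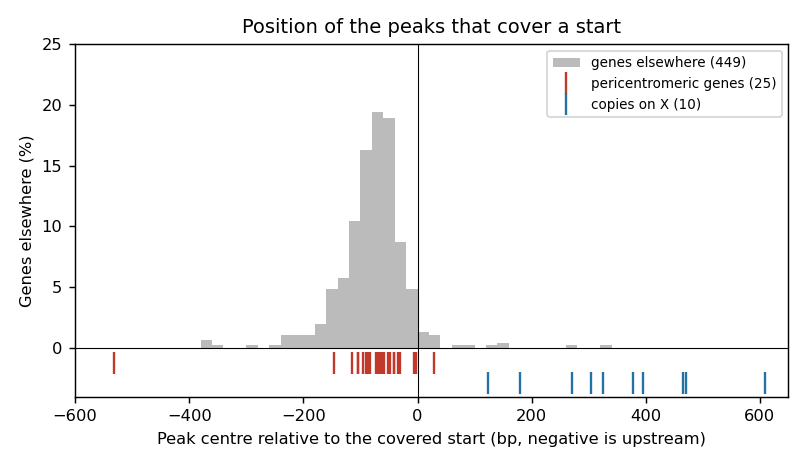
Distance in bp from the covered start to the centre of the covering peak, negative upstream; grey bars give the percentage of the 449 covered genes elsewhere in 20 bp bins, red ticks the 25 pericentromeric genes and blue ticks the 10 covered copies on X. The red ticks fall on the grey distribution around its median of -75 bp apart from CG17698 at -531 bp, and all blue ticks lie downstream, between 124 and 609 bp.

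The promoter words were not common at these starts. Within 100 bp of the start a DRE stood in 2 of the 25 covered genes (vtd and CG17698, 8.00%), against 11 of 129 uncovered pericentromeric genes outside the copies (8.53%), 17.8% of covered genes elsewhere and 7.83% of all genes of the 4 arms. The Motif 1 core stood in 2 of 25 (Clamp and Septin1), 2 of 129, 16.7% and 5.17% in the same order. The E-box stood in 0 of 25, 6 of 129, 3.56% and 2.91%. An initiator, searched within 10 bp of the start as TCANTN with G or T at the first N and C or T at the last, was found in 0 of 25 (up to 13.3% by the Wilson interval), 18 of 129 (14.0%), 3.34% and 11.5%. TATCTTGAC stood in 4 of 25 (16%), which are CkIIalpha, vtd, Tim23 and CG41128 as printed above, in 0 of 129, in 1 of 449 (0.223%) and in 29 of 10875 genes of the 4 arms (0.267%). It read in the direction of transcription in all 4, beginning 34, 19, 93 and 29 bases before the start respectively. Because this word was picked from the same windows, its count is a description and carries no test.

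The windows were also poor in G and C. Over 100 bp on each side of the start the median GC content was 32.3% at the 25 covered starts, 38.3% at the 129 uncovered pericentromeric starts outside the copies and 42.8% at the 449 covered starts elsewhere. Within the autosomal arms the covered and uncovered starts were closer, with medians of 32.3% (quartiles 30.1 and 35.1) and 34.1% (29.5 and 39.2).

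The 21 tandem copies on X carried wider peaks, centred inside the gene. Of the copies, 19 are 876 bp long and are 98.7 to 100% identical to each other, with a median spacing of 5000 bp between starts. A peak covered the start in 10 copies, 1 copy had a peak within the gene and 10 had none. The peaks were 339 to 1247 bp wide, and their centres lay 124 to 609 bp downstream of the start, with a median of 351.5 bp. None was once-occurring. The 151 bases around the start are the same in 4 copies, CG46511 included, of which 2 were covered and 2 had no peak. Words that occur once made up at most 22.1% of a covering peak (CG46506, the only copy with 2 peaks), then 12.2% (CG46517), 7.59% (CG46513), 6.87% (CG46514) and 6.53% (CG46507). Signal from different copies cannot be told apart where their sequence is the same, so these 10 genes stay out of the statements on the 25.

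Pericentromeric genes of the autosomal arms were longer than genes elsewhere. All 175 together had a median length of 3443 bp (quartiles 1290 and 11373) against 2180 bp elsewhere, and the median of the longest intron was 544 bp against 129 bp. By arm the medians were 3424 bp on 2L (1998 bp elsewhere on the arm), 9921 bp on 3L (2123 bp) and 12120 bp on 3R (2132 bp). On X the order was the opposite, 2260 bp against 2563 bp, and without the tandem copies the X median was 3341 bp. The share of covered starts was 24.6% in the 65 genes under 2 kb, 19.3% in the 57 of 2 to 10 kb and 15.1% in the 53 of 10 kb or more, against 3.91%, 5.31% and 8.79% elsewhere. In the class under 2 kb, 10 of the 16 covered genes were tandem copies; without the copies and the histone genes the share was 13.6% (6 of 44, 6.40 to 26.7) against 1.93% elsewhere. In the longest class the difference of 6.31 points had an interval (-1.10 to 18.3) that includes 0.

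The peaks inside introns were concentrated in a few giant genes. All 105 intron peaks lay on the 10 pericentromeric genes of 100 kb or more, every one of which had at least 1 (10 of 10, 72.2 to 100%). The other 165 genes, up to 80780 bp long, had 0, which allows a share of up to 2.28%. Elsewhere 26 of 62 genes of 100 kb or more had an intron peak (41.9%), a difference of 58.1 points (27.7 to 69.5). The 2 sets were not matched. The 10 genes had a median length of 181000 bp and 36.6% masked sequence, against 125000 bp and 21.4% in the 62.

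**Figure D3:**
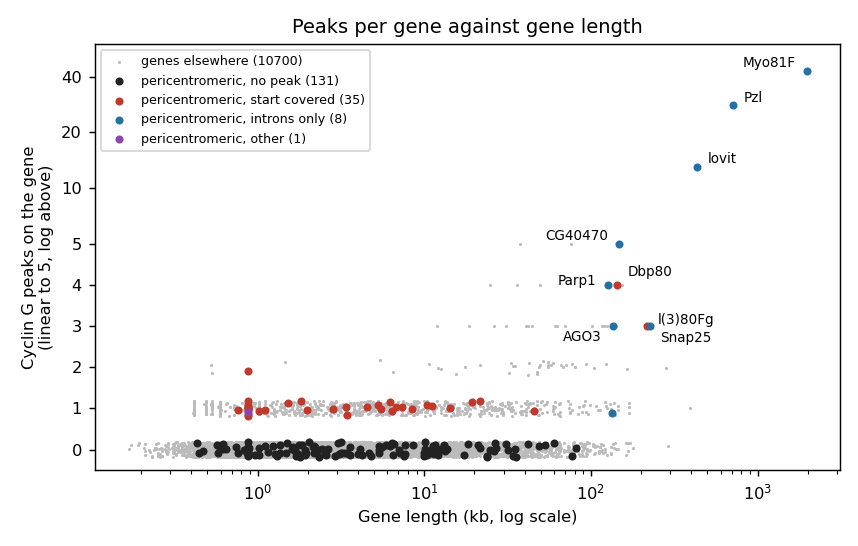
Number of peaks on each gene (linear to 5, logarithmic above; values below 3 are spread vertically for legibility) against gene length in kb on a log axis, for 10700 genes elsewhere (grey) and the 175 pericentromeric genes coloured by where their peaks lie. Most start-covered genes (red) have 1 peak at lengths under 100 kb, while the genes with intron peaks lie beyond 100 kb and rise to 43 peaks on Myo81F.

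Myo81F, an unconventional myosin gene of 1965857 bp, carried 43 intron peaks, or 21.9 per Mb of intron (95% Poisson interval 15.9 to 29.6). Pzl, which encodes a relative of the Piezo mechanosensitive channels, carried 28 over 709421 bp (39.8 per Mb, 26.5 to 57.6). The photoreceptor transporter gene lovit carried 13 over 434041 bp (30.1 per Mb, 16 to 51.5). These 3 genes held 84 of the 142 peaks on pericentromeric genes (59.2%) and 55.0% of their summed length. None of the 3 had a covered start.

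The other genes with intron peaks had few each. CG40470, of unknown function, had 5. Parp1, the poly(ADP-ribose) polymerase of chromatin, had 4. AGO3, an Argonaute of the piRNA pathway, and Snap25, a SNARE of synaptic release, had 3 each, and the uncharacterized CG40006 had 1. Dbp80 and l(3)80Fg combined both kinds, with a covered start and 3 and 2 intron peaks. The first intron peak stood between 4.65 kb (CG40470) and 122 kb (Myo81F) downstream of the 5′ end of the gene.

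**Figure D4:**
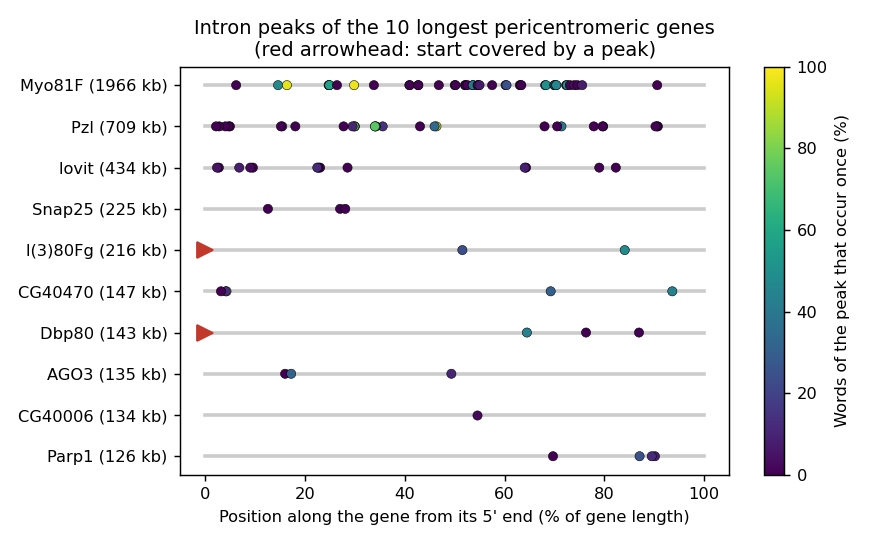
Position of each of the 105 intron peaks along the 10 longest pericentromeric genes, in percent of gene length from the 5′ end; colour gives the percentage of the 75 bp words of the peak that occur once in the genome, and red arrowheads mark covered starts. Peaks are scattered along Myo81F (43), Pzl (28) and lovit (13), nearly all in dark colours, and only Dbp80 and l(3)80Fg have both kinds.

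Counted as peaks, introns outweighed starts. Of the 142 peaks on pericentromeric genes, 105 lay in introns (73.9%), 35 covered a start (24.6%, 18.3 to 32.3) and 2 lay elsewhere in a gene, while elsewhere 193 of 635 lay in introns (30.4%) and 409 covered a start (64.4%). Pericentromeric genes carried 2.51 peaks per 100 kb of gene (2.12 to 2.96) against 0.889 elsewhere, and 10 genes had at least 2 peaks (5.71%, against 0.551%). Most of the intron peaks lay in repeated sequence, as did those elsewhere. Only 4 of the 105 intron peaks were once-occurring, 54 had no word that occurs once, and the median peak was 90% repeat-masked. Of the 193 intron peaks elsewhere, 6 were once-occurring and 138 had no word that occurs once, with a median of 74.1% masked. By contrast, 23 of the 35 start-covering peaks were once-occurring, and 376 of 409 elsewhere. With once-occurring peaks alone the start-covering share was 85.2% (23 of 27) against 95.4% elsewhere, and the density was 0.478 per 100 kb against 0.552. Without Myo81F, Pzl and lovit the start-covering share was 60.3% (35 of 58), against 64.4% elsewhere.

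Many intron peaks resembled other peaks of the list in sequence, as did intron peaks elsewhere. Of the 105, 84 (80%) had at least 1 partner among all peaks, meaning a peak with which at least 50% of the 31 bp words of the shorter of the pair were shared, with a median of 4 partners. Elsewhere 168 of 193 had a partner (87.0%), with a median of 8. An annotated mobile element was touched by 34 of the 105 (32.4%), most often F (9 peaks) and gypsy (5), against 186 of 193 intron peaks elsewhere (96.4%). Annotated elements covered 8.50% of the 3R region, of which 44.2% is repeat-masked, 20.4% of the 2L region (38.8% masked), 18.3% of the 3L region (39.2%) and 21.4% of the X region (33.4%); the part of this annotation in the counts was not tested. The Pzl peaks had a median of 12.0% masked sequence while 17 of 28 had no once-occurring word, and the Snap25 peaks had 8.02% with 3 of 3.

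The fourth set of sequences shows such intron peaks on the plus strand. The Pzl peaks at chr3R:3230286-3230403 and chr3R:3243468-3243580 share the 113 bases in capitals. The Myo81F peak at chr3R:889214-889314 is given for contrast, since 96.0% of the 75 bp words that begin in it occur once. Most of those words run past the end of the printed sequence.
Pzl intron peak, upstream copy on the plus strand: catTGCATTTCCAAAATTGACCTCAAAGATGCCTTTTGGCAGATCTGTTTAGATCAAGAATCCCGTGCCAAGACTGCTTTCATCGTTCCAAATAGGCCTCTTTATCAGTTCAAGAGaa
Pzl intron peak, downstream copy on the plus strand: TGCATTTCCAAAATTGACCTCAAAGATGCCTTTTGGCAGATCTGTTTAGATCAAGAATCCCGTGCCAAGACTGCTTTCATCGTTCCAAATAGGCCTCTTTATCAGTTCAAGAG
Myo81F intron peak: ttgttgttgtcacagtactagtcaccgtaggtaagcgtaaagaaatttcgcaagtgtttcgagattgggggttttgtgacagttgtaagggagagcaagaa

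Over all introns together, peaks were denser in pericentromeric genes than elsewhere and sparser than in the sequence around them. The density was 20.6 peaks per Mb of intron (16.9 to 25.0), against 4.78 in introns elsewhere (4.13 to 5.51) and 78.4 in pericentromeric sequence outside protein-coding genes (72.2 to 85.1). Among genes of 100 kb or more it was 25.1 per Mb (20.5 to 30.3) against 5.24 elsewhere (3.73 to 7.17). Among shorter genes the direction was the opposite, with 0 per Mb in the introns of the 165 pericentromeric genes (up to 4.10) against 4.92 elsewhere (4.2 to 5.73). The elsewhere values of these length classes were counted separately. Both exceed the 4.78 of all introns elsewhere, so they are not a breakdown of it. The gap to the surrounding sequence varied by arm. On 3R introns held 26.1 per Mb and the sequence outside protein-coding genes 38.2, on 3L 17.5 and 46.3, on 2L 3.29 and 88.4, and on X 0 (up to 14.6) and 164. For once-occurring peaks the values were 0.786 per Mb in pericentromeric introns, 0.149 in introns elsewhere and 1.36 outside protein-coding genes, from 4, 6 and 10 peaks. The 4 were 101 to 137 bp wide, so their words reached well into flanking sequence.

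**Figure D5:**
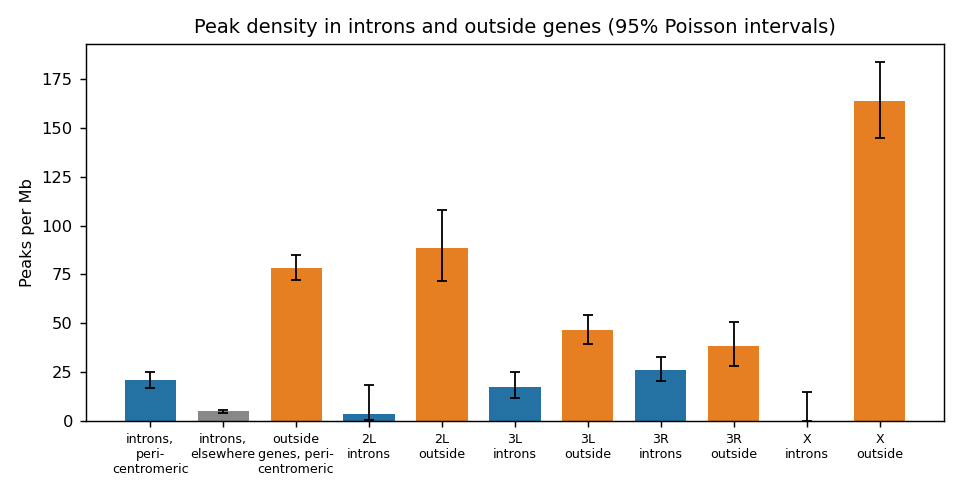
Peaks per Mb in introns of pericentromeric genes (blue), introns of genes elsewhere (grey) and pericentromeric sequence outside protein-coding genes (orange), overall and by arm, with 95% Poisson intervals. Sequence outside protein-coding genes holds 78.4 peaks per Mb against 20.6 in the introns, with the narrowest gap on 3R (38.2 and 26.1) and the widest on X (164 and 0).

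A list of 20 classical heterochromatic genes was read against these classes. Of them, 18 were among the 175 genes; d4 lies on 2R and Hs2st outside the border on 2L. Starts were covered in 4 (CkIIalpha, vtd, Dbp80 and Septin1), peaks lay in introns only in 4 (Parp1, Myo81F, Snap25 and AGO3), and 10 had no peak. The genes without a peak were lt and cta on 2L, whose nearest peaks stood 89204 and 86530 bp from the start, nrm (an adhesion protein), Set1 and nvd on 3L, spok on 3R, and su(f), stnA, stnB and fog on X. The genes nvd and spok act in the synthesis of the steroid hormone ecdysone, stnA and stnB in synaptic vesicle recycling, and fog encodes a secreted ligand of gastrulation. The nearest peak of nrm stood 3571 bp from its start and that of Set1 5746 bp, while that of nvd stood 104006 bp away. Whether genes without a peak are active in wing discs was not examined.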

How the data were processed

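Libraries of 2 Myc-CycGΔP ChIP samples with their inputs, and of 1 mock ChIP with its input, were each made from 600 wing discs. The authors filtered reads on quality, aligned them to dm6 with Bowtie2 (version 2.1.0), called peaks with MACS2 (version 2.1.0) for each ChIP against its own input, kept peaks reproducible between replicates (IDR) and merged overlapping ones with bedtools; versions are from the submitters' processing notes. The deposited list holds positions only, without score, signal or read counts, so the reads behind a peak are unknown and no test between samples was possible from it. The study's alignment settings allow repeated sequence, while its read summary counts uniquely aligned reads; which reads underlie peaks in repeats is not given in the sources used here.

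Genes, transcript starts, exons and mobile elements came from Ensembl release 115 (FlyBase 6.54), repeat masking and sequences from the RefSeq copy of dm6. A gene was start-covered where an annotated start lay in a peak, otherwise introns only where all its peaks lay within introns. Shares carry 95% Wilson, differences Newcombe and densities exact Poisson intervals, all for counting error only; genes are not replicates. The once-occurring 75 bp words (86.1% of dm6) were checked by direct search (40 words, 0 disagreements). The words of a peak are those that begin in it, and they can run past its end. A peak was called once-occurring where at least 90% of them occur once. Scoring was tested on 98 of the genes that stand apart from the others, each given a planted start peak, a planted intron peak or none. It returned all 98 classes. The planted peaks followed the same definitions, so this checks the code and not the definitions. Python 3.11.15, numpy 2.4.6, scipy 1.17.1 and matplotlib 3.10.9 were used.

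The regions, gene lists and classes were chosen with earlier results of these data known. Genes were named by rule: every gene with a covered start up to 30 (for more, the 30 whose peak has the largest once-occurring share), the 10 with most peaks, the 5 longest and the 20 classical genes; the tandem copies, CG46512 and the sequences shown were chosen after their values were seen. Alternatives changed the start rule, the peaks, the overlap, the borders, the symbols set aside, the arms and the gene length.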

Additional observations from a re-analysis of the deposited data

How the results depend on the processing

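Each share, density and median was recomputed under 15 alternatives where they applied, 12 of them planned and 3 chosen after seeing the data (without the tandem copies and the histone genes, once-occurring start windows only, and without Myo81F, Pzl and lovit). Of 84 values, 62 stayed within the interval of the reported value, 21 left it and 1 changed direction against genes elsewhere. The share of genes with a covered start, with any peak and with peaks in introns only stayed above that of genes elsewhere in all 15. None of the 15 took X alone. There, genes with once-occurring starts gave 3.17%, 3.17% and 0% in that order, against 7.21%, 9.41% and 1.65% elsewhere on X. The intervals of these differences include 0. All 90 X genes, copies included, gave 13.3%, 14.4% and 0%, against 7.23%, 9.54% and 1.59%. The reversal was the density under once-occurring peaks only, at 0.478 per 100 kb against 0.552. That setting also gave 13.1% of genes with a covered start (4.15% elsewhere) and 14.3% with any peak (4.64%). It gave 1.14% introns only (0.112%) and 85.2% of peaks at starts (95.4%). Wider peaks only (at least 365 bp) gave 7.43% with a covered start, 13.1% with any peak, 18.1% of peaks at starts and 1.27 per 100 kb. Elsewhere this setting gave 1.93%, 3.19%, 43.9% and 0.367. Requiring at least 50% of the peak inside the gene by construction removes peaks centred upstream of a start. It gave 7.43% with a covered start, 13.7% with any peak and 10.8% of peaks at starts, against 0.449%, 2.07% and 17.6% elsewhere. Borders 500 kb nearer the centromere gave 33.3% with any peak, against 7.01% elsewhere. Among genes of at least 10 kb, introns only gave 15.1% and peaks at starts 7.08%, against 8.52% and 37.8% elsewhere. Leaving out X gave 27.1% with a covered start, 36.5% with any peak, 9.41% introns only, 18% of peaks at starts and a median length of 7073 bp. Elsewhere these were 4.65%, 6.40%, 1.18%, 63.7% and 2090 bp. Leaving out 3R gave 50.0% of peaks at starts, against 62.8% elsewhere. Leaving out Myo81F, Pzl and lovit gave 60.3%, against 64.4%. No paired analysis was possible because the list pools both ChIP replicates. Leaving out a replicate was not possible for the same reason, and the mock ChIP was not used, so binding without the tagged protein was not measured here.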
